A study of Drosophila melanogaster with 52 samples.

Results

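The genes described here pattern the leg and the antenna of the fly along the proximodistal axis, which runs from the body wall to the tip of the appendage. They are Dll, btd, Sp1, Lim1, al, C15, bab1, bab2, disco and disco-r, chosen by symbol and with earlier results of these data known. All 10 were found among the 16502 genes of the deposited table. Each of the 10 reached 1 FPKM in every library and entered the tests, so none was lost to the filter on low values. FPKM is fragments per kilobase of transcript scaled to the mapped fragments of the library, a measure of transcript level corrected for transcript length.

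Leg and antennal discs use a shared set of transcription factors to divide the appendage into rings. The zinc finger genes btd and Sp1, relatives of Spps, act early to give ventral discs an appendage fate and to switch on Dll, the homeobox gene that marks the distal part. Later genes such as bab1 and bab2 act in the tarsus, and al, Lim1 and C15 at the tip. The zinc finger genes disco and disco-r act in the ventral appendages with Dll. Several of these genes are also classical Polycomb targets, kept silent in other parts of the body, and several are used in the brain as well.

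The study asked what happens in larvae of Drosophila melanogaster that are mutant for a DNA-binding recruiter of Polycomb group proteins. Imaginal discs and brains were taken in the third larval instar, and their poly(A) RNA was sequenced in 3 wild-type libraries (WT), 4 libraries of Spps mutants (SppsKO) and 3 libraries of pho mutants (PhoKO). Per the series' design text, the Spps mutants were maternal-zygotic mutants and the pho mutants zygotic ones. The sources used here give neither the alleles nor the WT strain nor the age within the instar. Nor do they say whether replicate libraries are separate crosses, so the p-values reflect the scatter among these libraries and some of it may be technical.

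Both targeted genes matched the labels. The level of Spps was 0.877 to 1.04 FPKM in SppsKO against 12.2 to 12.9 in WT, and that of pho 15.3 to 18.7 FPKM in PhoKO against 53.7 to 67.8 in WT. The 8 disc epithelium markers (such as vg, nub and sd) and the 8 brain and neuron markers (such as elav and nSyb) were all above 0 in every library. Relative depth, read from the size of the FPKM steps of low genes with WT 1 taken as 100%, was lowest in WT 3 (59.9%) and PhoKO 1 (63.7%) and reached 106% in SppsKO 3. In such bulk samples fewer cells of a type and less RNA per cell cannot be told apart in any value below.

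In WT the genes covered a wide range of levels per length. Sp1 was the highest at 56.4 ± 3.55 FPKM (SD, n = 3), followed by Dll at 51.2 ± 3.34, and these overlapped. Below them came bab2 at 41.0 ± 0.599, al at 31.3 ± 2.85, disco-r at 22.9 ± 0.653, Lim1 at 21.2 ± 0.154 and disco at 14.1 ± 0.348 FPKM, none overlapping its neighbour in the order. At the bottom btd at 8.47 ± 0.711 and C15 at 7.71 ± 0.434 FPKM overlapped, and bab1 was lowest at 5.17 ± 0.113. These levels put bab1 at the 19.5th percentile and Sp1 at the 80.9th percentile of the WT means of the 9748 tested genes.

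**Figure D1:**
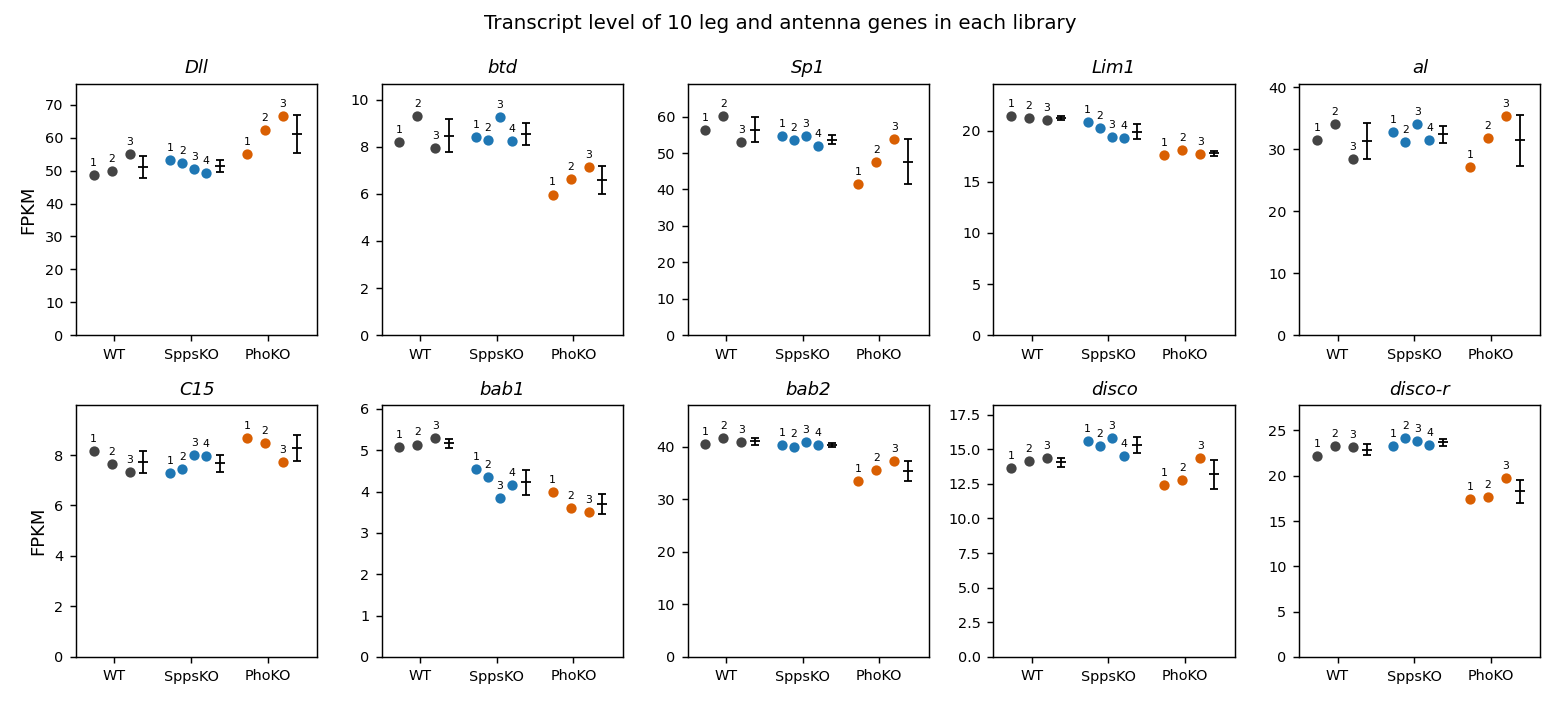
FPKM of each of the 10 genes (y axes, from 0) in each WT, SppsKO and PhoKO library (x axis). Points are libraries with their replicate number, and bars are the mean and SD of the group. The PhoKO libraries of Lim1, bab1, bab2, btd and disco-r all lie below the WT libraries, while those of al and C15 overlap WT.

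In PhoKO 5 of the 10 genes were called lower and none was called higher against WT. Lim1, bab1, bab2, btd and disco-r were lower in PhoKO than in WT, to between 71.5% (bab1) and 83.8% or 86.3% (Lim1 and bab2) of the WT mean. The other 5, Dll, Sp1, al, C15 and disco, did not pass the test. Over all 9748 tested genes 9.66% were called in this comparison, 5.08% lower and 4.59% higher. The 5 genes that fell were also those whose WT and PhoKO libraries did not overlap, which held for 28.2% of all tested genes. The median difference of the 10 genes was -0.23 on the log2(FPKM + 1) scale, against 0.00 for all tested genes. A call is an adjusted p under 0.05 in a linear model fitted with limma across all genes and all 10 libraries, with Benjamini-Hochberg adjustment. Because 1 was added to each FPKM value before the log, the change of a low gene such as bab1 is understated.

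Among the tip genes, Lim1 showed the tightest shift. Lim1 encodes a LIM-homeodomain factor of the most distal leg and of the antenna, with a further role in the nervous system. Its values were 21.4, 21.2 and 21.1 FPKM in WT 1 to 3, and 17.6, 18.1 and 17.8 in PhoKO 1 to 3. The groups did not overlap, and the WT libraries had the lowest coefficient of variation of any of the 10 genes in any group, 0.724%. The difference was -0.24 (SE 0.04, adjusted p = 0.00410, limma). This call held when any of the 10 libraries was left out (highest adjusted p = 0.0205) and under the 11 other settings tried (highest adjusted p = 0.0320).

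The partners of Lim1 at the tip, al and C15, were not called in PhoKO. The homeobox gene al stood at 31.5, 34.1 and 28.4 FPKM in WT and at 27.2, 31.8 and 35.3 in PhoKO. Its groups overlapped fully, and the difference of 0.00 (SE 0.09) had a 95% interval from -0.20 to 0.21. C15, a homeobox gene of the claw region also called clawless, stood at 8.17, 7.65 and 7.31 FPKM in WT and at 8.67, 8.48 and 7.71 in PhoKO. It was not called either (0.09, SE 0.06, adjusted p = 0.446), with an interval from -0.05 to 0.24. So of the homeobox genes of the tip, Lim1 alone passed the test, but the differences between these 3 genes were not tested.

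Both genes of the bric-a-brac pair, which encode BTB-domain factors that subdivide the tarsus, were lower in PhoKO. The level of bab2 was 40.4, 41.6 and 41.0 FPKM in WT and 33.5, 35.6 and 37.2 in PhoKO. For bab1 the values were 5.07, 5.14 and 5.29 FPKM in WT and 3.98, 3.60 and 3.51 in PhoKO. Neither gene's groups overlapped. By limma the difference was -0.39 for bab1 (SE 0.07, adjusted p = 0.0101) and -0.21 for bab2 (SE 0.04, adjusted p = 0.0118). Both calls held when any single library was left out (highest adjusted p = 0.0424 and 0.0438), and that of bab2 was lost when WT and PhoKO alone were fitted (adjusted p = 0.0688).

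The zinc finger gene disco-r had the lowest adjusted p of the 10. It stood at 22.1, 23.3 and 23.2 FPKM in WT and at 17.5, 17.6 and 19.8 in PhoKO, 79.9% of the WT mean. The groups lay apart, with PhoKO 3 nearest to WT. The difference was -0.31 (SE 0.05, adjusted p = 0.00386, limma), and the call held without any single library (highest adjusted p = 0.0206). Its relative disco, named for disconnected photoreceptor axons in its mutants, stood at 13.7, 14.1 and 14.4 FPKM in WT and at 12.4, 12.8 and 14.4 in PhoKO. It was not called (-0.09, SE 0.06, adjusted p = 0.406), and PhoKO 3 lay level with the highest WT library.

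Of the Sp-family genes, btd was lower in PhoKO and Sp1 missed the threshold. The level of btd was 8.19, 9.28 and 7.95 FPKM in WT and 5.97, 6.63 and 7.13 in PhoKO, 77.6% of the WT mean with no overlap. Its difference was -0.32 (SE 0.08, adjusted p = 0.0331, limma). That call was lost when WT 1, WT 2, SppsKO 1, SppsKO 2, PhoKO 1 or PhoKO 2 was left out, with values between -0.37 and -0.26 over all omissions (highest adjusted p = 0.0975). It was lost too without both WT 3 and PhoKO 1 (adjusted p = 0.0788) and when WT and PhoKO alone were fitted (adjusted p = 0.108). Sp1 stood at 56.3, 60.0 and 52.9 FPKM in WT and at 41.5, 47.4 and 53.8 in PhoKO. Only PhoKO 3 reached the WT range, and the difference of -0.25 (SE 0.08, adjusted p = 0.0933) was called without PhoKO 3 (-0.34, adjusted p = 0.0211).

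Dll had the opposite sign. Its values were 48.8, 49.9 and 55.0 FPKM in WT and 55.0, 62.2 and 66.5 in PhoKO, where the mean was 120% of WT. The groups overlapped only at PhoKO 1 and WT 3, at 55.0 FPKM each. The difference of 0.25 (SE 0.07, adjusted p = 0.0545, limma) just missed the threshold. It was called when WT 3 (0.30, adjusted p = 0.0383) or PhoKO 1 (0.32, adjusted p = 0.0165) was left out, and without both of these shallow libraries (0.38, adjusted p = 0.00754). In PhoKO, Dll lay above Sp1 in every library, whereas in WT these genes overlapped and in each SppsKO library Sp1 lay above Dll. C15 likewise lay above btd in every PhoKO library, while btd lay above C15 in each SppsKO and WT library, narrowly in WT 1 (8.19 against 8.17 FPKM).

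PhoKO 1 was the lowest of the PhoKO libraries for 8 of the 10 genes and PhoKO 3 the highest for 7. Without PhoKO 1 and WT 3, the shallow libraries, 4 of the 10 were called lower and 1 higher against WT. That setting called 627 of all tested genes, 327 lower and 300 higher, against 942 with all libraries. When only WT and PhoKO were fitted, 3 of the 10 were called, all of them lower. Calls among all tested genes then fell to 486, 241 lower and 245 higher. The exact two-sided permutation test of a single gene, which cannot go below p = 0.1 with 3 libraries against 3, gave p = 0.1 for Lim1, bab1, bab2, btd and disco-r and p = 0.2 for Dll and Sp1.

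None of the 10 genes passed the test in SppsKO. Against WT limma called 0 of them, with 2 at an unadjusted p under 0.05 (bab1 and Lim1), where 8.18% of all tested genes were called, 4.26% lower and 3.92% higher. The median difference was 0.00 on the log2(FPKM + 1) scale, the same as for all tested genes to 2 decimals. Array weights called 2 genes, bab1 lower (-0.20, adjusted p = 0.0261) and disco higher (0.15, adjusted p = 0.0199), where 2263 of all 9748 tested genes were called. A fit without trend and robust moderation called bab1 alone (adjusted p = 0.0304), where 800 of all 9748 were called. Over the 10 settings other than leaving out 1 library that kept bab1, its difference ran from -0.29 to -0.07 (highest adjusted p = 0.538). A p that misses the threshold does not show that the levels were equal, and the intervals below say how far they could differ.

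The closest relatives of Spps did not pass the test in its absence. In SppsKO 1 to 4 btd stood at 8.40, 8.27, 9.24 and 8.25 FPKM, across the WT range. Its difference was 0.01 (SE 0.07, adjusted p = 0.946), with a 95% interval from -0.15 to 0.18. Sp1 stood at 54.6, 53.4, 54.7 and 52.0 FPKM, with SppsKO 4 just below the lowest WT library. Its difference was -0.07 (SE 0.08, adjusted p = 0.634), with an interval from -0.24 to 0.10. Dll, which both genes help to activate, stood at 53.3, 52.2, 50.5 and 49.2 FPKM, and its interval ran from -0.14 to 0.15 around a difference of 0.00.

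The remaining genes in SppsKO differed mostly in how far their libraries lay from WT. The level of bab1 was 4.56, 4.36, 3.85 and 4.15 FPKM, below every WT library, with a difference of -0.24 (SE 0.07, adjusted p = 0.0672, limma). Lim1 stood at 20.8, 20.2, 19.3 and 19.3 FPKM, also below WT (-0.09, SE 0.04, adjusted p = 0.171). The levels of disco were 15.6, 15.2, 15.8 and 14.5 FPKM, above every WT library (0.11, SE 0.05, adjusted p = 0.232). For disco-r they were 23.3, 24.1, 23.9 and 23.4, just above WT (0.05, SE 0.05, adjusted p = 0.575). These 4 genes had groups that did not overlap, 2 lower and 2 higher, as did 24.0% of all tested genes, 11.8% lower and 12.2% higher. The tarsal gene bab2 lay between 40.1 and 40.9 FPKM (-0.02, SE 0.04), al between 31.2 and 34.1 (0.05, SE 0.09) and C15 between 7.30 and 7.99 (-0.01, SE 0.06), all of them overlapping WT.

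**Figure D2:**
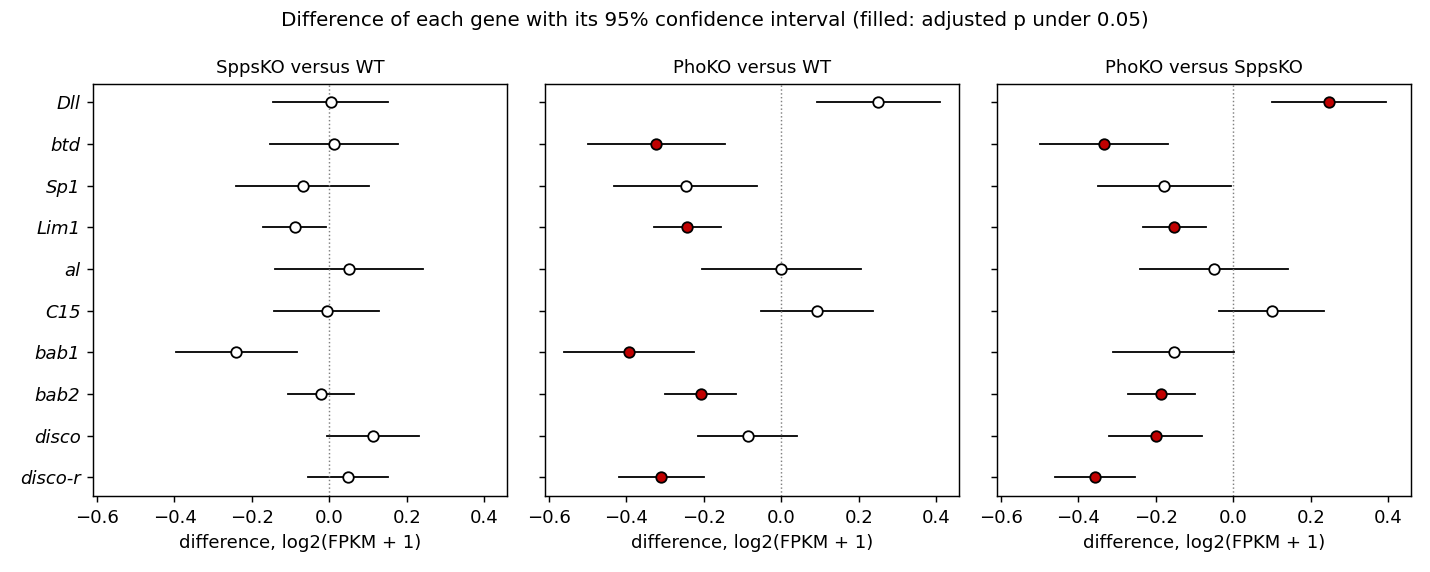
Difference of each of the 10 genes on the log2(FPKM + 1) scale (x axes) for each mutant against WT and for PhoKO against SppsKO, with 95% confidence intervals. Filled points passed an adjusted p under 0.05. They number 0 for SppsKO against WT, 5 for PhoKO against WT and 6 for PhoKO against SppsKO, where Dll alone is filled on the higher side.

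The direct comparison of the mutants called 6 of the 10 genes. In PhoKO relative to SppsKO, btd, bab2, disco, disco-r and Lim1 were lower and Dll was higher, where 14.4% of all tested genes were called, 7.12% lower and 7.24% higher. This comparison shares its PhoKO libraries with the one above, so its calls are not independent of it. The largest differences were -0.36 for disco-r (SE 0.05, adjusted p = 0.00106) and -0.33 for btd (SE 0.07, adjusted p = 0.0165). Those of bab2 (-0.19, SE 0.04, adjusted p = 0.0120), disco (-0.20, SE 0.05, adjusted p = 0.0345) and Lim1 (-0.15, SE 0.04, adjusted p = 0.0229) were smaller. Dll stood 0.25 higher (SE 0.07, adjusted p = 0.0345). All 6 had groups that did not overlap (exact two-sided permutation p = 0.0286, the smallest that 3 libraries against 4 allow), as did 31.4% of all tested genes, 16.7% lower and 14.7% higher.

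Calls of disco-r and bab2 between the mutants held without any single library. That of btd was lost without PhoKO 1 (-0.27, adjusted p = 0.0598). The call of Lim1 was lost without SppsKO 1, SppsKO 2 or any PhoKO library (highest adjusted p = 0.0723), that of disco without SppsKO 1, SppsKO 2, SppsKO 3, PhoKO 1 or PhoKO 2 (highest adjusted p = 0.119), and that of Dll without any SppsKO library, PhoKO 2 or PhoKO 3 (highest adjusted p = 0.106). The number called was 3 without SppsKO 1, SppsKO 2, PhoKO 1 or PhoKO 2. Over all tested genes it was 940, 845, 829 and 844 without these, in that order, against 1400 with all libraries. When WT 3 and PhoKO 1 were omitted together, 4 of the 10 genes were called, Lim1 (adjusted p = 0.0676) and disco (adjusted p = 0.111) being lost. Over all tested genes 1161 were called without that pair. The call of disco was lost also when SppsKO and PhoKO alone were fitted (adjusted p = 0.0524). For bab1, which lay below WT in both mutants, the mutants themselves differed by -0.15 (SE 0.07, adjusted p = 0.170). That difference was called under quantile normalization (-0.30, adjusted p = 0.0171) and with array weights (-0.20, adjusted p = 0.0329).

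The genes include 3 pairs of paralogs that lie side by side in the genome. In the gene order of the Release 6 plus ISO1 MT assembly, which is not the build of the files and was used for order only, no annotated gene lies between bab1 and bab2. A single long non-coding RNA gene lies between btd and Sp1, and 2 non-coding genes lie between disco and disco-r. Over the 10 libraries the pairs moved together to different degrees, with a Pearson correlation of log2(FPKM + 1) of 0.89 for btd and Sp1, 0.85 for disco and disco-r and 0.64 for bab1 and bab2. These values span 3 genotypes and libraries of unequal depth, and are given as a description.

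Within a pair, the ratio of the paralogs shows whether they shifted unequally, and does not change when a library is multiplied by a common factor. Quantile normalization is not such a factor, and the ratios were not recomputed under it. The ratio of disco-r to disco lay between 1.62 and 1.65 in WT, between 1.5 and 1.61 in SppsKO and between 1.38 and 1.41 in PhoKO. The 3 groups did not overlap, although SppsKO 4 came close to WT. For bab2 to bab1 the ratio lay between 7.74 and 8.10 in WT, between 8.84 and 10.6 in SppsKO and between 8.40 and 10.6 in PhoKO, with both mutants above WT and overlapping each other. Sp1 to btd ran from 6.47 to 6.88 in WT, from 5.92 to 6.50 in SppsKO and from 6.96 to 7.55 in PhoKO. None of the 9 comparisons of these ratios passed a Benjamini-Hochberg adjustment over the 9, the lowest adjusted p being 0.0857, from exact two-sided permutation tests with unadjusted p = 0.0286 (3 comparisons, the smallest possible with 3 against 4 libraries). The design could not reach 0.05 for PhoKO versus WT. In the other comparisons a single ratio at the smallest possible p could not pass the adjustment over the 9 by itself. Not passing therefore says little about any one ratio.

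**Figure D3:**
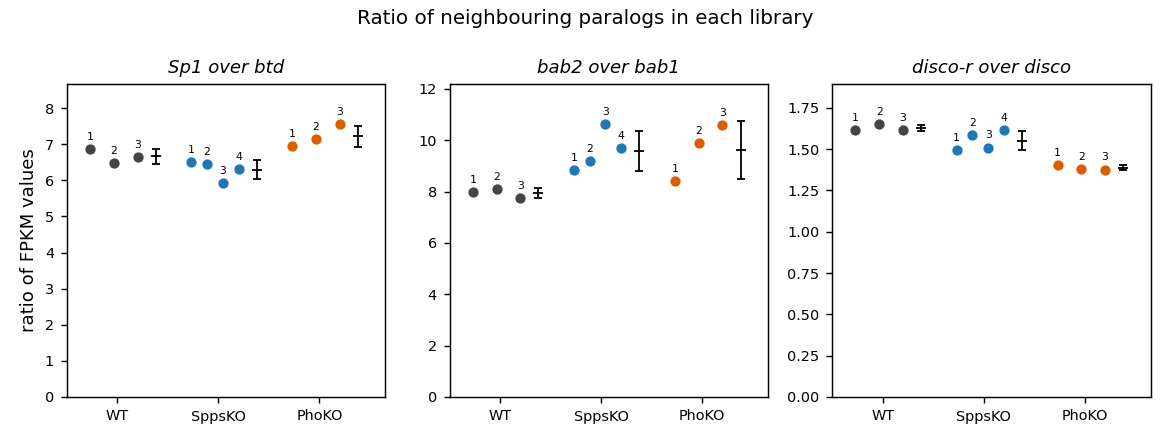
Ratio of the FPKM values of neighbouring paralogs (y axes, from 0) in each WT, SppsKO and PhoKO library (x axis), with replicate numbers and the mean and SD of each group. The ratio of disco-r to disco is lowest in PhoKO, at 1.38 to 1.41, and that of bab2 to bab1 is higher in both mutants than the 7.74 to 8.10 of WT.

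Other genes of the proximodistal axis were read from a list of 34, of which 33 were in the table by symbol and all 33 were tested. In PhoKO 5 of the 33 rose and 0 fell, where 4.59% of all tested genes rose and 5.08% fell. In SppsKO 3 rose and 2 fell, where 3.92% of all tested genes rose and 4.26% fell. The median difference was 0.03 in PhoKO and 0.04 in SppsKO, against 0.00 for all tested genes in each. The list holds the proximal genes hth, exd, tsh and tio, the intermediate gene dac, genes of the tarsus and joints, antennal genes, and the ligands and Notch pathway genes that act on them.

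The 3 largest rises of the list in PhoKO were those of ss, dan and danr. The bHLH-PAS gene ss, which specifies distal antenna against leg and also acts in the tarsus, stood at 6.27, 6.57 and 5.33 FPKM in WT, between 5.81 and 6.16 in SppsKO, and at 9.29, 9.87 and 11.9 in PhoKO. The PhoKO libraries were apart from all others, and the difference from WT was 0.68 (SE 0.09, adjusted p = 0.00184, limma). The antennal gene dan stood at 9.97, 9.71 and 10.7 FPKM in WT and at 15.1, 13.9 and 14.9 in PhoKO, a rise of 0.49 (SE 0.06, adjusted p = 0.000647). Its relative danr rose from between 21.3 and 23.3 FPKM to between 28.4 and 31.5, a difference of 0.41 (SE 0.05, adjusted p = 0.00109). In SppsKO dan rose too, by 0.35 (SE 0.05, adjusted p = 0.00342), while ss had a difference of -0.01 (SE 0.09). In PhoKO the calls of ss, dan and danr held without any single library (highest adjusted p = 0.00803, 0.00470 and 0.00580), as did that of dan in SppsKO (highest adjusted p = 0.0179).

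**Figure D4:**
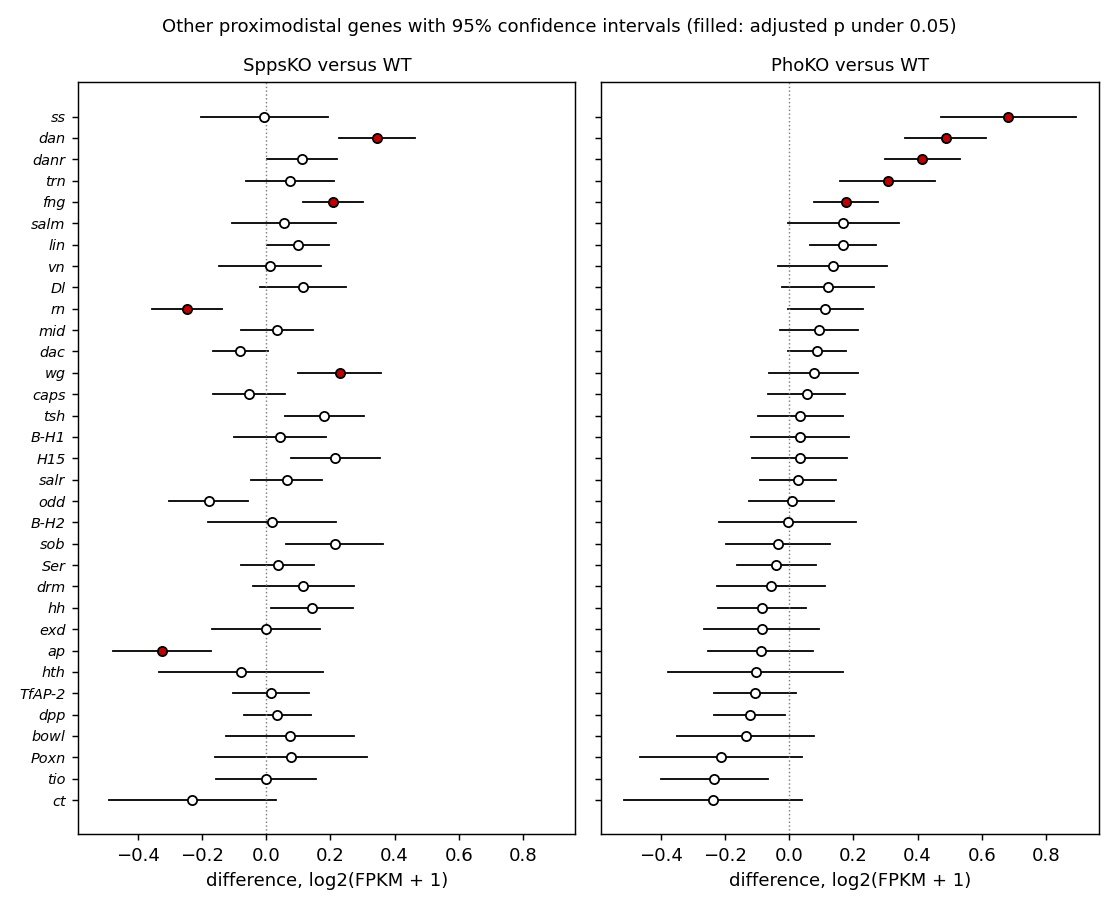
Differences of 33 other proximodistal genes on the log2(FPKM + 1) scale (x axes) in each mutant against WT, with 95% confidence intervals, ordered by the PhoKO difference. Filled points passed an adjusted p under 0.05. In PhoKO the filled points are ss, dan, danr, trn and fng, all higher, and in SppsKO they are dan, fng and wg (higher) and ap and rn (lower).

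Calls on the list also included rn, ap and trn. The zinc finger gene rn stood at 27.4, 26.8 and 27.1 FPKM in WT, at 23.9, 23.0, 23.2 and 20.6 in SppsKO and at 28.8, 30.3 and 29.1 in PhoKO. The 3 groups did not overlap. In SppsKO it fell by 0.25 (SE 0.05, adjusted p = 0.0129), which missed the threshold when WT 1 was omitted (adjusted p = 0.0509). Against WT it was not called in PhoKO (0.11, SE 0.05, adjusted p = 0.227), and it was 0.36 higher in PhoKO than in SppsKO (SE 0.05, adjusted p = 0.00132). The LIM-homeobox gene ap, active in the tarsus and the dorsal wing, stood at 46.7, 49.9 and 44.5 FPKM in WT and between 36.2 and 38.3 in SppsKO. There it fell by 0.32 (SE 0.07, adjusted p = 0.0181), which did not hold when WT 1 or WT 2 was omitted (highest adjusted p = 0.0605). The leucine-rich repeat gene trn rose in PhoKO by 0.31 (SE 0.07, adjusted p = 0.0184), which did not hold when WT 1, PhoKO 2 or PhoKO 3 was omitted (highest adjusted p = 0.0709).

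The Wnt ligand gene wg rose in SppsKO by 0.23 (SE 0.06, adjusted p = 0.0409, limma), from 23.9 to 28.7 FPKM in WT to between 29.8 and 31.6. That call was lost when any library except WT 2 and PhoKO 1 was left out (highest adjusted p = 0.104). The BMP ligand gene dpp had differences of 0.03 in SppsKO (SE 0.05) and -0.12 in PhoKO (SE 0.05, adjusted p = 0.165). The Hedgehog ligand gene hh was not called against WT in either mutant, at 0.14 (SE 0.06) in SppsKO and -0.08 (SE 0.06) in PhoKO. The glycosyltransferase gene fng, which modifies Notch, rose by 0.21 in SppsKO (SE 0.04, adjusted p = 0.0136) and by 0.18 in PhoKO (SE 0.04, adjusted p = 0.0365), with both mutants above every WT library. The SppsKO call held without any single library (highest adjusted p = 0.0497), and the PhoKO call was lost without any WT library, SppsKO 1, SppsKO 2, PhoKO 2 or PhoKO 3 (highest adjusted p = 0.124). The proximal homeobox gene hth and the intermediate gene dac were not called against WT in either mutant, with hth at -0.08 (SE 0.11) and -0.10 (SE 0.12) and dac at -0.08 (SE 0.04) and 0.09 (SE 0.04) in SppsKO and PhoKO.

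Between the mutants directly, 6 of the 33 were higher in PhoKO and 3 lower, where 7.24% of all tested genes were higher and 7.12% lower. Those higher were ss (0.69), rn, danr (0.30), trn (0.23), ap (0.24) and dac (0.17, SE 0.04, adjusted p = 0.0187), and those lower were hh (-0.23), sob (-0.25) and dpp (-0.16). Calls of ss, rn and danr held without any single library. Each of the others was lost without PhoKO 2. That of dac was lost also without PhoKO 3 (highest adjusted p = 0.0696), that of trn without PhoKO 3 or any of SppsKO 2 to 4 (0.123), and that of hh without PhoKO 1 or any SppsKO library (0.103). The call of sob was lost also without WT 1, PhoKO 1 or any SppsKO library (0.128), that of ap without WT 1, PhoKO 3 or any SppsKO library (0.144), and that of dpp without any library except WT 3 (0.152). In all 3 of the 33 were called without PhoKO 2, 4 without SppsKO 2 or SppsKO 3, and 5 without SppsKO 1 or SppsKO 4. Over all tested genes 844, 845, 952, 940 and 1196 were called without these libraries, in that order. Against WT the count among the 33 was 3 in PhoKO without WT 1, PhoKO 2 or PhoKO 3, and 2 in SppsKO without WT 1. Over all tested genes it was 554, 572 and 627 in PhoKO, in that order, and 530 in SppsKO.

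Tissue markers moved beside these genes in PhoKO. Of 10 eye disc markers, 1 of which (dac) is also on the list above, 5 rose in PhoKO (ato, eya, gl, ro and so). The summed level of the 10 was 298 to 313 FPKM against 252 to 269 in WT. In SppsKO ato rose (0.29, adjusted p = 0.00152, limma) and ro fell (-0.35, adjusted p = 0.0494). Of 6 glia markers 4 rose in PhoKO (loco, moody, nrv2 and repo), with sums of 250 to 278 against 205 to 226 FPKM, and 0 were called in SppsKO. Over all tested genes 4.59% rose in PhoKO, and in SppsKO 3.92% rose and 4.26% fell. Of 8 disc epithelium markers 0 were called against WT in either mutant (2 at an unadjusted p under 0.05 in PhoKO and 1 in SppsKO, limma), and their sums were 367 to 399 FPKM in WT, 400 to 420 in SppsKO and 340 to 399 in PhoKO, with PhoKO 1 the lowest at 340. Of 8 brain and neuron markers wor alone rose in PhoKO, with sums of 271 to 303 against 251 to 288 FPKM in WT. The summed level of the 10 leg and antenna genes was 256 to 266 FPKM in WT, 251 to 261 in SppsKO and 223, 244 and 263 in PhoKO 1 to 3. The part of tissue composition in the PhoKO differences was not tested.

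**Figure D5:**
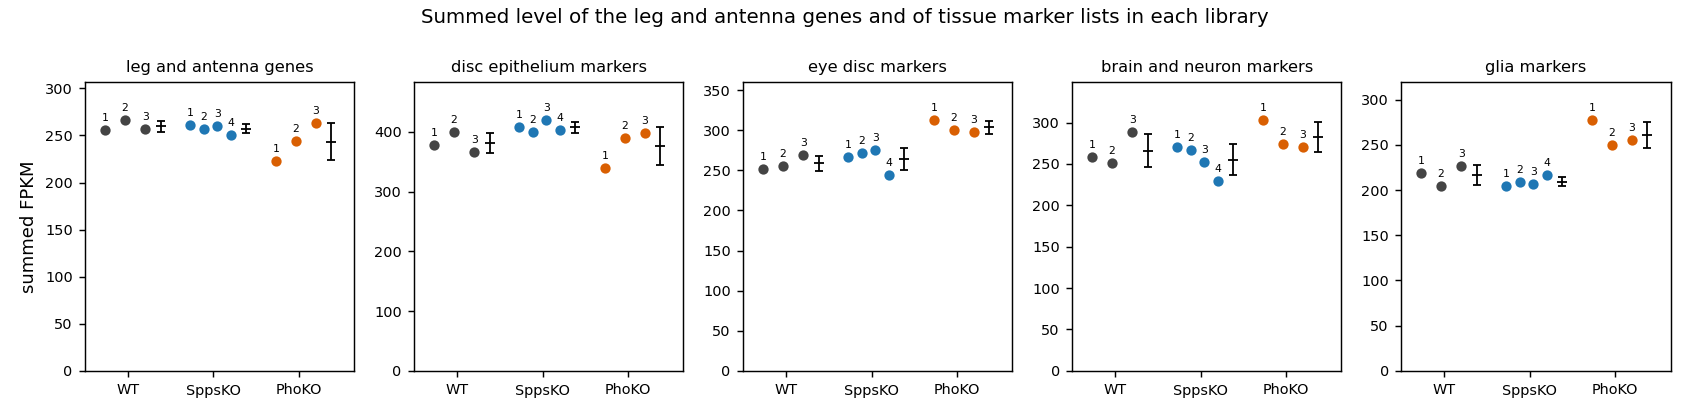
Summed FPKM (y axes, from 0) of the 10 leg and antenna genes and of 4 tissue marker lists in each library (x axis), with replicate numbers and the mean and SD of each group. Eye disc and glia sums of every PhoKO library lie above those of every WT and SppsKO library, and PhoKO 1 has the lowest sum of the leg and antenna genes, at 223 FPKM, and of the disc epithelium markers, at 340.

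Markers of tissues other than discs and brain differed as well. In SppsKO 6 of 8 hemocyte markers fell (summed level 53.3 to 104 FPKM against 169 to 296 in WT), where 4.26% of all tested genes fell. NimC1 went the other way there, at 159% of the WT mean, and was not called. In PhoKO 1 rose (NimC1, at 521% of the WT mean) and 0 fell, where 4.59% of all tested genes rose and 5.08% fell. The hemocyte list was split in PhoKO, with 4 of the 8 differences below 0. Muscle marker sums were 71.1 to 153 FPKM in SppsKO, 239 to 251 in WT and 152 to 600 in PhoKO, fat body sums 1324 to 2087, 1258 to 5422 and 722 to 4297, and salivary gland sums 282 to 3022, 814 to 6336 and 79.5 to 1461. Of the 6 members of each, 0 muscle and 0 fat body markers were called against WT in either mutant (muscle 1 and 0, fat body 1 and 0 at an unadjusted p under 0.05 in SppsKO and PhoKO, limma), and 1 salivary gland marker fell in PhoKO. Their part in the values above was not tested.

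The genes most alike to each called gene were read from the Pearson correlation of log2(FPKM + 1) with all other tested genes over the 10 libraries. They were CR45184 (0.99) and hfw (0.99) for bab2, CG16721 (0.99) and simj (0.97) for btd, and simj (0.98) and Wnt6 (0.97) for disco-r. Those of Lim1 were CG4041 (0.98) and CG1885 (0.97), those of bab1 CR44030 (0.96) and CG18336 (0.95), those of Dll osp (0.95) and CG11498 (0.93), and those of disco PPP4R2r (0.94) and CG8545 (0.94). So btd and disco-r shared simj, and no gene of the set was among the nearest of another. These are the highest of many correlations over few libraries that share genotype and depth, and say nothing of shared control.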

How the data were processed

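The values are FPKM per gene and library, which the authors deposited as a normalized table with 1 column per library. Per the submitters' processing notes, the series used Trim Galore, TopHat2 2.1.1, Cufflinks, Cuffnorm, HTSeq and DESeq2, among other tools, and the builds dm3 and BDGP5. Which of them made this table, with which annotation and strand setting, is not given in the sources used here. Overlapping antisense genes can therefore share fragments. Of the 52 samples, the 10 RNA-Seq libraries were used, and the 42 ChIP-Seq samples were not analysed here.

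Depth in reads is unknown, because only FPKM was used here. Relative depth came from the ratio of FPKM steps among genes under 0.3 FPKM. Genes with an FPKM of 1 or more in at least 3 libraries (9748 of 16502) were taken as log2(FPKM + 1) and fitted with limma 3.58.1 in R 4.3.3 (eBayes with trend and robust), all 10 libraries in 1 model with no covariate, and p-values were adjusted by Benjamini-Hochberg over all 9748 within each comparison. The fit was tested on simulated data. Single values were compared by exact permutation over libraries.

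The genes, the list of other proximodistal genes and the marker lists were chosen with earlier results of these data known. Named are all 10 genes, the targeted genes, every called gene of the other list with dac, hth, ss, wg and dpp, and the 2 genes most alike to each called gene. One gene of the other list, dysf, was not analysed here.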

Additional observations from a re-analysis of the deposited data

Results flagged for a closer look

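The level of btd in SppsKO 3, 9.24 FPKM, stood apart from the other SppsKO libraries (8.25 to 8.40 FPKM), the gap being 85.1% of the range of the group. It lies within the WT range of 7.95 to 9.28 FPKM. Of 10 genes tested in this way in the 4 SppsKO libraries this was the only one to stand apart, and chance alone flags about 1 in 20 groups.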

How the results depend on the processing

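Counts and single-gene differences were recomputed under 21 alternatives chosen with the design: 10 that leave out a library and 11 other settings. The paralog ratios were recomputed only with each library of the compared groups left out. Among the 10 leg and antenna genes, array weights called 2 in SppsKO against WT (7 in PhoKO against WT), and a fit without trend and robust moderation called 1. In PhoKO against WT the fit of those 2 groups alone called 3. Leaving out a library gave 0 in SppsKO against WT, 4 to 6 in PhoKO against WT, and 3 to 6 in PhoKO against SppsKO. Filtering at a mean of 5 FPKM gave no value for bab1. Of all 9748 tested genes, array weights called 2263, 2178 and 2764 in SppsKO against WT, PhoKO against WT and PhoKO against SppsKO (main counts 797, 942 and 1400). Omitting a library gave 506 to 838, 554 to 1112 and 829 to 1671. In PhoKO against WT the count was 627 without WT 3 and PhoKO 1 and 486 with those groups alone. Of the 33 other proximodistal genes, array weights called 11, 11 and 14 (main 5, 5 and 9), omitting a library gave 2 to 6, 3 to 7 and 3 to 11, and omitting WT 3 and PhoKO 1 together gave 3 in SppsKO against WT. The cause of these shifts was not tested.

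Quantile normalization changed the balance of calls over all genes, to 625 higher and 307 lower in SppsKO against WT (main 382 and 415), 548 and 417 in PhoKO against WT (main 447 and 495), and 523 and 819 in PhoKO against SppsKO (main 706 and 694). No scaling moved the median of all genes by more than 0.0380.

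No pairing by replicate number was seen: same-numbered libraries' deviations correlated at -0.38 to 0.11, with 2 of 9 pairs over 0.1. The deviations were taken from group means of few libraries, so this check cannot exclude a pairing. Each library was also set against each other group holding its number, and in 2 of 18 such cases its own number correlated best. With the replicate number as a block, 449 genes were called in SppsKO against WT, 670 in PhoKO against WT and 753 in PhoKO against SppsKO. Replicate 4 exists only in SppsKO, so the block model fitted SppsKO 4 exactly and that library did not inform the comparisons. Calls lost under the block therefore include the effect of losing that library. Of the 10 genes 4 were called under the block in PhoKO against WT, with btd lost (adjusted p = 0.0712), and 3 in PhoKO against SppsKO, with btd (0.0551), Lim1 (0.0504) and Dll (0.0952) lost, and of the 33 others 3 in SppsKO against WT, 4 in PhoKO against WT and 4 in PhoKO against SppsKO.

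Signs turned only for differences near 0 that were called under no setting. Without WT 3 and PhoKO 1, btd (-0.0285) and al (-0.0163) turned in SppsKO against WT, and al (0.0468) and hth (0.0516) in PhoKO against SppsKO. Median-of-ratios scaling gave -0.000223 for al in PhoKO against WT. Quantile normalization gave 0.115 for C15 and 0.138 for ss in SppsKO against WT and 0.0120 for hth in PhoKO against SppsKO. In SppsKO against WT, hth was 0.0471 with array weights and 0.0330 with the block, and ss was 0.00784 with the block. Omitting single libraries took the SppsKO against WT difference from -0.0302 to 0.0550 for Dll, -0.0285 to 0.0717 for btd, -0.0163 to 0.111 for al, -0.0401 to 0.0310 for C15, -0.133 to 0.0330 for hth and -0.0821 to 0.0474 for ss. That of PhoKO against WT ran from -0.0852 to 0.0972 for al. For PhoKO against SppsKO it ran from -0.136 to 0.0468 for al, -0.137 to 0.0516 for hth and -0.0702 to 0.0981 for the log2 ratio of bab2 to bab1.

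Depth in reads is unknown, so counting error could not be set beside the spread, and WT 3 and PhoKO 1 are the shallowest libraries.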
